A study of Homo sapiens with 18 samples.

Results

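The genes described here are 40 NRF2 target and detoxification genes, chosen by symbol from the 57773 genes of a bulk RNA-Seq table, and all 40 were found in it. The table covers 2 human NSCLC lines, A549 and H1299, in 18 libraries. A549 is a lung adenocarcinoma line that carries a loss-of-function mutation of KEAP1, and H1299 is a line from a lymph node metastasis with intact KEAP1. In each line, PPP2R2A, the gene for a B-type regulatory subunit of PP2A, was knocked down (KD) with the hairpin shPPP2R2A-2 or shPPP2R2A-1, and cells with the control hairpin shcon served as the reference. Each of the 6 groups held 3 libraries, and nothing states whether they came from separate cultures, so that a p-value measures only how far these libraries spread, and that spread may be technical. All groups carry a hairpin, so that no library shows cells without one, and the lines differ in much besides KEAP1. The questions were how the 40 genes differ between the KEAP1-mutant and the KEAP1-intact line under shcon, and how each hairpin changes them in each line.

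NRF2, encoded by NFE2L2, is a transcription factor that raises the cell's defence against oxidants and electrophiles. In unstressed cells, KEAP1 hands NRF2 to the CUL3 ubiquitin ligase for degradation. When KEAP1 is oxidized or mutated, NRF2 protein escapes degradation, pairs with a small MAF protein and binds antioxidant response elements near its target genes. Mutations of KEAP1 or NFE2L2 are common in lung cancer and are known for high levels of glutathione, NADPH and drug-metabolizing enzymes. NRF2 is controlled mainly at the protein level, which RNA-Seq does not measure.

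Levels are given as CPM, counts scaled by the effective library size from TMM over all 18 libraries, with no division by gene length, so that they compare libraries and not genes. Libraries held 40.9 M to 60.2 M counts in A549 and 35.7 M to 69.3 M in H1299. In A549, the shPPP2R2A-2 libraries held 10.6, 13.1 and 15.4 CPM of PPP2R2A, the shPPP2R2A-1 libraries 9.27, 11.2 and 7.36 CPM and the shcon libraries 84.3, 48.7 and 86.2 CPM. In H1299, the shPPP2R2A-2 libraries held 18.1, 17.7 and 14.5 CPM, the shPPP2R2A-1 libraries 7.32, 9.82 and 6.51 CPM and the shcon libraries 104, 73.7 and 84.7 CPM. All 12 KD libraries lay below the shcon libraries of their line, and in H1299 shPPP2R2A-2 left more PPP2R2A RNA than shPPP2R2A-1 (log2 fold change 1.08, SE 0.21, edgeR adjusted p = 0.0073). The epithelial keratins KRT8 and KRT18 were counted in every library of both lines, whereas CDH1, EPCAM and KRT19 were at or near 0 in H1299. Summed over 5 leukocyte markers, the level was at most 0.978 CPM in any A549 library and 0.507 CPM in any H1299 library. Summed over 5 fibroblast markers, A549 libraries had 28.9 to 34.4 CPM (shPPP2R2A-2), 18.1 to 39.5 CPM (shPPP2R2A-1) and 9 to 11.5 CPM (shcon), and the part of these markers in the results was not tested. The A549 library shPPP2R2A-2 replicate 1 held 1.47% of the H1299 level of 13 genes otherwise near 0 in A549, against at most 0.0296% in the other A549 libraries. H1299 libraries held at most 0.00915% of the A549 level of 103 genes near 0 in H1299.

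To show the DNA that NRF2 is known to bind, the promoters of the members were searched for the core of the antioxidant response element, TGACNNNGC, on both strands. In the RefSeq promoters of GRCh38.p14, which run from 250 bases before to 50 bases after a start site, 30 of the 40 members had at least 1 entry, 39 promoters in all. The core was present in 11 of these 39 promoters (28.2%), from 10 members, and in 4687 of all 35116 promoters (13.3%). The 10 members were GCLM, TXNRD1, PGD, ME1, IDH1, GPX2, EPHX1, CBR1, PIR and CYP4F11. As examples, a site is printed for each of 6 of them. These genes differed strongly between the lines or moved with a hairpin, or the core overlaps the AP-1 word TGACTCA, as in ME1 and PIR. Other members that moved with a hairpin, such as PGD, and another core of ME1 are not printed. Capitals mark the 9 bases of the core, read 5′ to 3′ on the strand that holds it.
GCLM, chr1:93909446-93909474, plus strand: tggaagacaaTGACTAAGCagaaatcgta
GPX2, chr14:64942849-64942877, plus strand: atccccaggaTGACTTAGCaaaaacaggt
ME1, chr6:83431170-83431198, minus strand: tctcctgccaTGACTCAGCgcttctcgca
EPHX1, chr1:225825266-225825294, plus strand: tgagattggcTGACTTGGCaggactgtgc
CYP4F11, chr19:15935005-15935033, plus strand: cagctcagggTGACACAGCatgggcacag
PIR, chrX:15493289-15493317, plus strand: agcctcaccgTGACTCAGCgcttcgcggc
A match is a description of the letters and was not tested for binding.

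Under shcon, the members were mostly higher in A549 than in H1299. Of the 39 members tested, 34 were higher in A549 at an adjusted p under 0.05 (quasi-likelihood test of edgeR, Benjamini-Hochberg correction over all genes tested), 1 was lower and 4 were not called. Of all 18827 genes tested, 30.6% were higher and 25.4% lower. The median log2 fold change was 2.57 over the members, against 0.0712 over all genes. It was the same with 7 genes that had 0 or 1 counts in H1299 set at their bound. All these bounds lay above the median, so that this step could not lower it. A gene near 0 in H1299 can pass the filter on low counts only because it is high in A549, and then had to differ. Over the 31 members that passed the filter within each line, 26 were higher (83.9%) and 1 lower, with a median of 2.28, against 24.8% higher and 26.3% lower of the 14597 genes that passed in both lines. SRXN1, which encodes sulfiredoxin, was not tested: it had 13 counts over the A549 shcon libraries and 12 over the H1299 ones, and 85.0% of its exon bases in GENCODE 29 lie in an overlapping gene on the same strand, so that these counts do not give its level. In bulk RNA, fewer cells of a kind and less RNA per cell cannot be told apart.

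**Figure D1:**
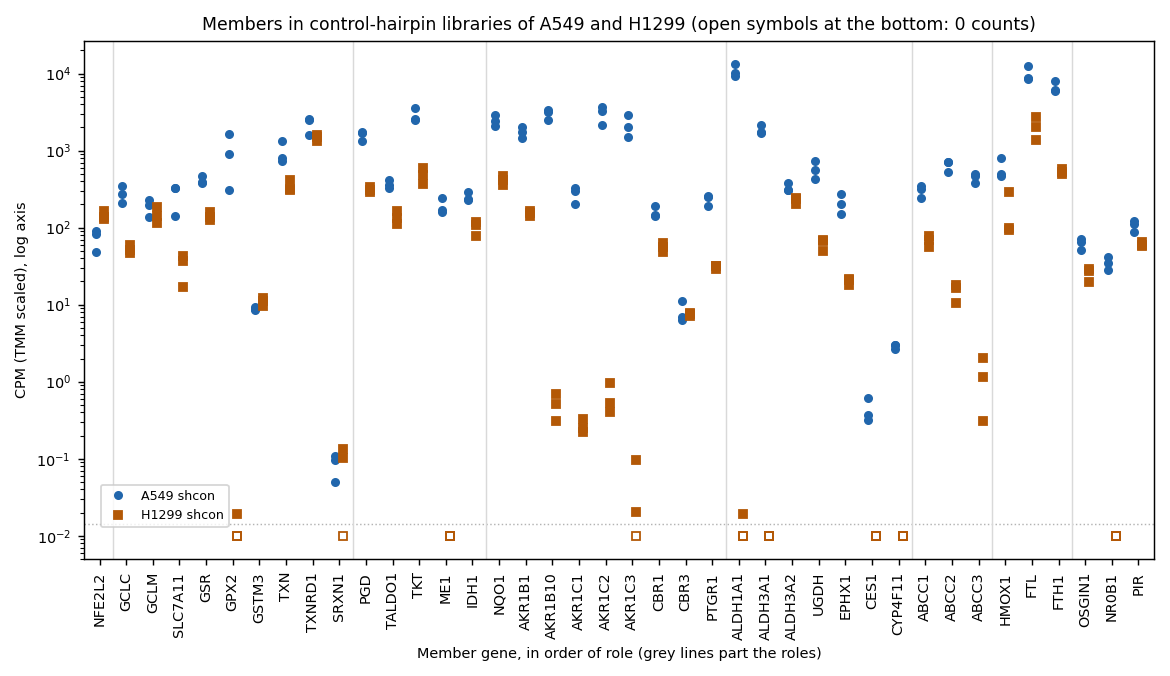
CPM on a log axis of each of the 40 members in the 3 A549 shcon libraries (circles) and the 3 H1299 shcon libraries (squares), with genes in order of role and open symbols at the bottom for 0 counts. The A549 circles lie above the H1299 squares for most genes, with H1299 squares under 1 CPM for ALDH1A1, ALDH3A1, GPX2, ME1, NR0B1, AKR1B10 and the AKR1C genes among others, and below them for NFE2L2.

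The factor itself went the other way. NFE2L2 stood at 81.9, 48.3 and 89.2 CPM in A549 shcon, against 129, 137 and 162 CPM in H1299 shcon. All A549 libraries were below all H1299 libraries (log2 fold change -0.97, SE 0.26, edgeR adjusted p = 0.0038). KEAP1 RNA did not pass the test between the lines, at 87, 84.9 and 80.7 CPM in A549 shcon and 105, 89.8 and 74.4 CPM in H1299 shcon (log2 fold change -0.09, SE 0.18, edgeR adjusted p = 0.69).

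Several metabolic genes were at or near 0 in H1299 and high in A549. ALDH1A1, which oxidizes retinal and other aldehydes, stood at 9210.4, 13220.1 and 10219 CPM in A549 shcon and 0, 0.0191 and 0 CPM in H1299 shcon. ALDH3A1, which oxidizes aromatic and fatty aldehydes, stood at 1722, 2121 and 1718 CPM in A549 shcon and at 0 in all H1299 shcon libraries. The H1299 shcon libraries thus held at most 1 count of either gene. ALDH3A1 was at least 101872-fold higher in A549, against a floor of 3 counts over the 3 H1299 shcon libraries. ALDH1A1 had 1734275 counts against 1, a ratio whose 95% counting interval ran down to 323164, and such an interval covers counting error only. GPX2, an epithelial peroxidase that uses glutathione, stood at 307, 1634 and 916 CPM in A549 shcon, against 0, 0.0191 and 0 CPM in H1299 shcon. Its A549 libraries spread widely, and its ratio to the 1 count in H1299 had an interval that ran down to 28837.

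ME1, the cytosolic malic enzyme that makes NADPH, stood at 171, 161 and 239.6 CPM in A549 shcon, and no count fell on it in H1299 shcon, so that it was at least 10658-fold higher in A549. NR0B1, an orphan nuclear receptor known as a target in KEAP1-mutant lung cancer, stood at 34.5, 42 and 28.5 CPM in A549 shcon. It had 0 counts in all 9 H1299 libraries and was at least 1909-fold higher in A549 shcon than in H1299 shcon. CYP4F11, a fatty acid hydroxylase, and CES1, a carboxylesterase, had low levels in A549 shcon, at 2.64, 2.99 and 2.97 CPM and 0.322, 0.614 and 0.365 CPM, and 0 counts in H1299 shcon. The bounds were 159-fold for CYP4F11 and 23.9-fold for CES1, whose reads can also be shared with pseudogenes over 19.7% of its 100-base windows.

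The aldo-keto reductases, which reduce carbonyls and steroids, were under 1 CPM in H1299 shcon except AKR1B1. AKR1C3 stood at 1514, 2922 and 2053 CPM in A549 shcon and 0.0205, 0.0953 and 0 CPM in H1299 shcon. AKR1B10 stood at 2491, 3408 and 3211 CPM in A549 shcon, against 0.307, 0.686 and 0.518 CPM in H1299 shcon. AKR1C2 stood at 2183, 3689.7 and 3306 CPM in A549 shcon and 0.409, 0.972 and 0.533 CPM in H1299 shcon. The groups did not overlap for any of these genes, and log2 fold changes were 12.54 (SE 0.58) for AKR1B10 and 12.22 (SE 0.60) for AKR1C2, with edgeR adjusted p = 6.4e-12 and 1.5e-11. AKR1C3 passed the filter on low counts only through A549 and is given without a test: it had 346607 counts in A549 shcon against 6 in H1299 shcon, a ratio of scaled counts with a 95% counting interval of 27555 to 163430. The near-identical AKR1C genes share 32.9% (AKR1C2), 17.4% (AKR1C1) and 4.98% (AKR1C3) of their 100-base windows with other genes of the family, so that the split of counts among them is uncertain. AKR1C1 had a log2 fold change of 10.04 (SE 0.34). AKR1B1, the aldose reductase, was counted in both lines, at 2048, 1770.2 and 1459 CPM in A549 shcon and 166, 157 and 142 CPM in H1299 shcon (log2 fold change 3.51, SE 0.24, edgeR adjusted p = 1.1e-09). NQO1, the quinone reductase often used as a readout of NRF2, stood at 2087, 2877 and 2394 CPM in A549 shcon, against 464, 421 and 355 CPM in H1299 shcon. Its levels did not overlap between the lines (log2 fold change 2.57, SE 0.23, edgeR adjusted p = 2.5e-08).

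All 5 genes of NADPH supply and all 3 exporters were higher in A549, against 30.6% of all genes tested. ME1, with 0 counts in H1299 shcon, passed the filter on low counts only through A549 and had to differ. Besides ME1, the log2 fold change was 2.57 (SE 0.22) for transketolase TKT, 2.35 (SE 0.18) for phosphogluconate dehydrogenase PGD, 1.43 (SE 0.20) for transaldolase TALDO1 and 1.30 (SE 0.24) for isocitrate dehydrogenase IDH1. TALDO1 stood at 359.8, 412 and 329 CPM in A549 shcon and 164, 132 and 112 CPM in H1299 shcon, without overlap. IDH1 stood at 229, 233 and 290.2 CPM in A549 shcon and 77.5, 108 and 119.6 CPM in H1299 shcon, also without overlap. The exporters of drug and glutathione conjugates ABCC3, ABCC2 and ABCC1 had log2 fold changes of 8.57 (SE 0.49), 5.43 (SE 0.30) and 2.16 (SE 0.20). The ferritin chains FTH1 and FTL, which store iron, had 3.63 (SE 0.24) and 2.28 (SE 0.34), and FTH1 shares 20.2% of its 100-base windows with pseudogenes. The edgeR adjusted p of these 9 genes ranged up to 0.00015. HMOX1, which breaks down heme, had 1.88 (SE 0.66, edgeR adjusted p = 0.021), and this call was lost without A549 shcon replicate 2 (edgeR adjusted p = 0.071), H1299 shcon replicate 2 (edgeR adjusted p = 0.087) or H1299 shcon replicate 3 (edgeR adjusted p = 0.084).

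Glutathione and thioredoxin genes were split. GCLC, the catalytic subunit of the enzyme that starts glutathione synthesis, stood at 270.1, 209 and 343 CPM in A549 shcon and 46.9, 50.6 and 60.3 CPM in H1299 shcon (log2 fold change 2.38, SE 0.31, edgeR adjusted p = 3.7e-06). GCLM, the modifier subunit of the same enzyme, stood at 197, 137 and 229 CPM in A549 shcon and 116, 143 and 185 CPM in H1299 shcon, with overlap, and was not called (log2 fold change 0.34, SE 0.29, edgeR adjusted p = 0.33). SLC7A11, the cystine importer, had a log2 fold change of 3.05 (SE 0.48) and GSR, glutathione reductase, 1.55 (SE 0.22), with edgeR adjusted p = 2.9e-05 and 7.9e-06. Thioredoxin TXN stood at 805, 1321 and 724 CPM in A549 shcon and 418, 316 and 310.3 CPM in H1299 shcon, without overlap (log2 fold change 1.45, SE 0.22, edgeR adjusted p = 2.5e-05). Thioredoxin reductase TXNRD1 was abundant in both lines, at 2499.6, 1578 and 2551 CPM in A549 shcon and 1347, 1582 and 1500.1 CPM in H1299 shcon (log2 fold change 0.58, edgeR adjusted p = 0.07). The glutathione transferase GSTM3 and the carbonyl reductase CBR3 were the other members not called, with log2 fold changes of -0.31 (SE 0.24, edgeR adjusted p = 0.28) and 0.11 (SE 0.30, edgeR adjusted p = 0.79).

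Smaller differences were called in 4 further genes. ALDH3A2, a microsomal fatty aldehyde dehydrogenase, stood at 309.9, 309 and 375 CPM in A549 shcon and 204, 240.3 and 237 CPM in H1299 shcon (log2 fold change 0.54, SE 0.18, edgeR adjusted p = 0.014), and its call was lost without A549 shcon replicate 3 (edgeR adjusted p = 0.07) or H1299 shcon replicate 1 (edgeR adjusted p = 0.057). PIR, an iron-binding nuclear protein, stood at 87.5, 122 and 111 CPM in A549 shcon, against 64.2, 58.5 and 59.9 CPM in H1299 shcon (log2 fold change 0.82, SE 0.21, edgeR adjusted p = 0.0028). OSGIN1, an oxidative stress induced growth inhibitor, stood at 51.6, 70.4 and 65.3 CPM in A549 shcon, against 29.4, 27.5 and 19.8 CPM in H1299 shcon (log2 fold change 1.29, SE 0.27, edgeR adjusted p = 0.00061). Carbonyl reductase CBR1 stood at 142, 191 and 145 CPM in A549 shcon and 62.5, 56.1 and 47.8 CPM in H1299 shcon (log2 fold change 1.52, SE 0.18, edgeR adjusted p = 8.2e-07). All A549 libraries lay above all H1299 libraries for each of these 4 genes. The remaining called members were PTGR1, which reduces prostaglandins and alkenals (2.92, SE 0.20), UGDH, which makes UDP-glucuronate (3.20, SE 0.29), and EPHX1, microsomal epoxide hydrolase (3.38, SE 0.26), all log2 fold changes.

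In A549, shPPP2R2A-1 lowered more members than it raised. Of the 39 tested, 13 fell and 2 rose, against 6.34% lower and 7.34% higher among all 17229 genes tested. Without shcon replicate 3, 9 members fell and 2 rose, and over all genes 423 fell and 495 rose, against 1092 and 1265 with it. The median log2 fold change over the members was -0.54, against -0.018 over all genes, and 34 of the 39 were negative. With shPPP2R2A-2, 4 members fell and 5 rose, against 9.94% lower and 10.6% higher of all genes, and the median was 0.0042, against -0.00569 over all genes. Both hairpins are set against the same shcon libraries. In the same direction with both hairpins, 2 members fell (GCLC and GCLM) and 1 rose (GSTM3), against 2.03% and 3.03% of all genes, and 0 members were called in opposite directions, against 0.389% of all genes.

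**Figure D2:**
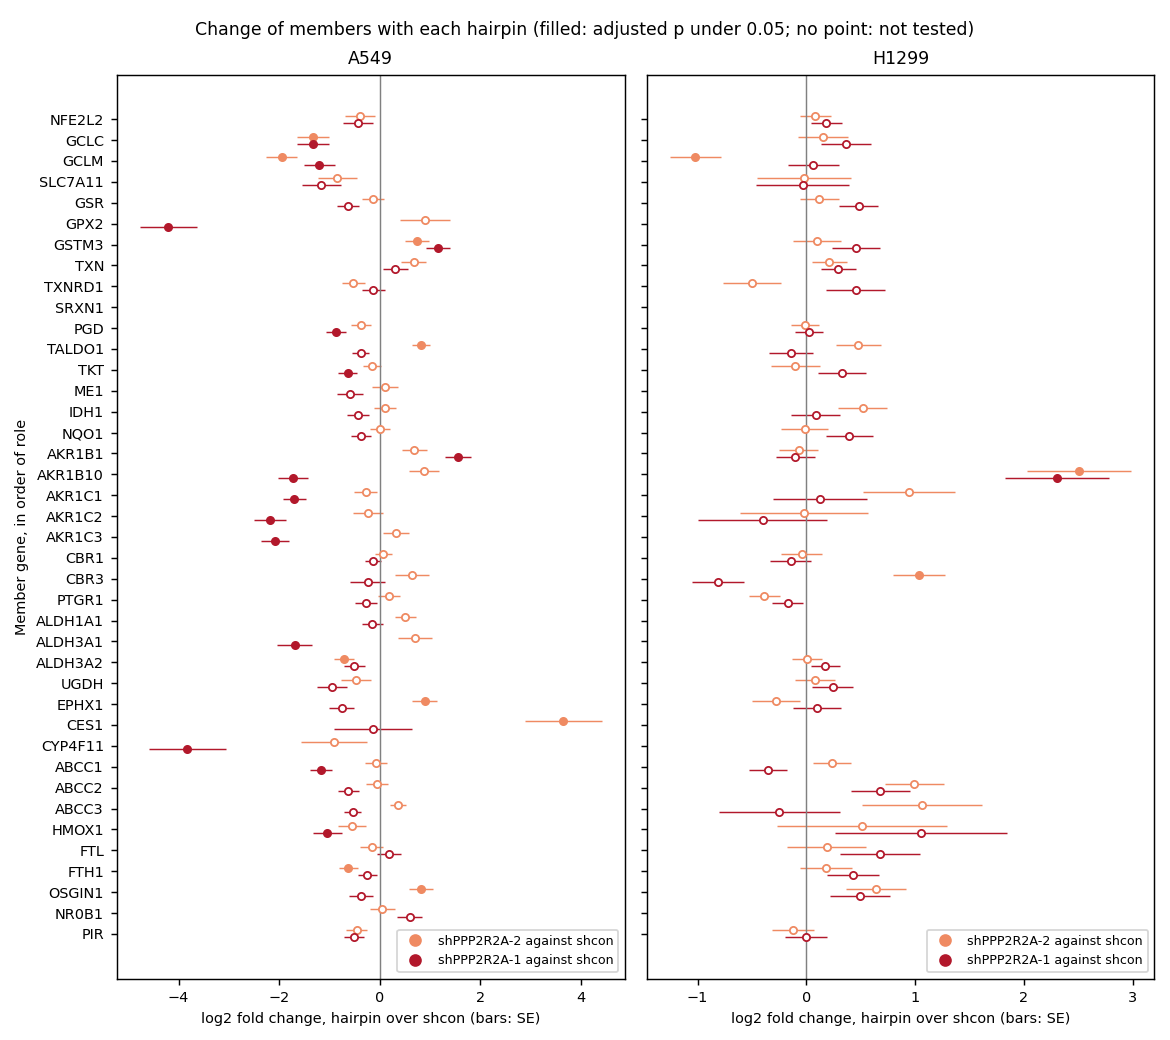
Log2 fold change of each member with shPPP2R2A-2 and shPPP2R2A-1 over shcon in A549 (left) and H1299 (right), with bars for the SE and filled points where the edgeR adjusted p was under 0.05. In A549, the points of shPPP2R2A-1 lie left of those of shPPP2R2A-2 for GPX2, CYP4F11, AKR1C and AKR1B10, whereas GCLC and GCLM lie left of 0 with both hairpins.

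GPX2 and the aldo-keto reductases AKR1B10, AKR1C1, AKR1C2 and AKR1C3 fell with shPPP2R2A-1. GPX2 stood at 64.6, 69.4 and 22.4 CPM with shPPP2R2A-1, against 307, 1634 and 916 CPM with shcon. All shPPP2R2A-1 libraries were lower, though the shcon libraries themselves spread widely (log2 fold change -4.20, SE 0.57, edgeR adjusted p = 0.0021). AKR1C3 stood at 589, 606 and 349.9 CPM with shPPP2R2A-1, against 1514, 2922 and 2053 CPM with shcon (log2 fold change -2.08, SE 0.27, edgeR adjusted p = 0.002). AKR1C2 stood at 882, 797 and 359 CPM with shPPP2R2A-1, against 2183, 3689.7 and 3306 CPM with shcon (log2 fold change -2.18, SE 0.31, edgeR adjusted p = 0.0026). The groups did not overlap for either gene, and AKR1C1, with reads shared as above, had -1.70 (SE 0.23). AKR1B10 stood at 1256, 1058 and 460.0 CPM with shPPP2R2A-1, against 2491, 3408 and 3211 CPM with shcon (log2 fold change -1.73, SE 0.30, edgeR adjusted p = 0.0057). ALDH3A1 stood at 925, 555 and 259 CPM with shPPP2R2A-1, against 1722, 2121 and 1718 CPM with shcon (log2 fold change -1.69, SE 0.35, edgeR adjusted p = 0.011). All shPPP2R2A-1 libraries were again below all shcon libraries for both. CYP4F11 stood at 0.443, 0.0848 and 0.0736 CPM with shPPP2R2A-1, against 2.64, 2.99 and 2.97 CPM with shcon, and had a log2 fold change of -3.82 (SE 0.77, edgeR adjusted p = 0.01).

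With shPPP2R2A-1, AKR1B1 moved opposite to its relative AKR1B10. It stood at 3508, 4963 and 7024 CPM with shPPP2R2A-1, against 2048, 1770.2 and 1459 CPM with shcon. All shPPP2R2A-1 libraries lay above all shcon libraries (log2 fold change 1.55, SE 0.26, edgeR adjusted p = 0.0046). With shPPP2R2A-2, AKR1B1 stood at 2764, 3174 and 2486 CPM, also above all shcon libraries. It was not called there (log2 fold change 0.69, SE 0.25, edgeR adjusted p = 0.077). The exporter ABCC1 fell, with 169.9, 128 and 107 CPM with shPPP2R2A-1 and 320.0, 239.8 and 347 CPM with shcon (log2 fold change -1.17, SE 0.21, edgeR adjusted p = 0.0071). HMOX1, PGD and TKT fell by 1.04, 0.87 and 0.64 on the log2 scale (SE 0.28, 0.20 and 0.19, edgeR adjusted p = 0.032, 0.019 and 0.042). The HMOX1 call was lost in the fit of all 18 libraries (edgeR adjusted p = 0.31) and without any of 4 of the 9 libraries, and the TKT call was lost on omission of any of 8 of the 9.

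The library shPPP2R2A-1 replicate 3 had the lowest of the 9 A549 values for 24 of 39 members. The matching share over all genes was not computed. Without shPPP2R2A-1 replicate 3, 10 members fell with shPPP2R2A-1, and without A549 shcon replicate 3 9 did. Over all genes, 683 and 423 fell in these cases, against 1092 with both libraries kept. The PGD call ended without either library, with edgeR adjusted p = 0.057 and 0.066.

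Most genes called lower with shPPP2R2A-1 were not called with shPPP2R2A-2. Of these, CYP4F11, HMOX1 and PGD were still below 0 with shPPP2R2A-2 (log2 fold changes -0.91, -0.55 and -0.38), as were AKR1C1, AKR1C2, TKT and ABCC1. GPX2, AKR1B10, AKR1C3 and ALDH3A1 were above 0. The hairpins differed from each other in several members, but no difference was called in HMOX1, PGD, TKT, GCLC or GCLM (edgeR adjusted p = 0.24, 0.12, 0.095, 0.99 and 0.11). Of the 39 members, 14 were higher and 1 lower with shPPP2R2A-2 than with shPPP2R2A-1, 15 called in all (38.5%), against 9.54% higher, 8% lower and 17.5% in either direction of all genes. The median difference was 0.50 on the log2 scale, against -0.0237 over all genes. PPP2R2A itself did not pass this test in A549 (log2 fold change 0.51, SE 0.25, edgeR adjusted p = 0.18). GPX2 stood at 1917, 1759 and 1620.2 CPM with shPPP2R2A-2 and 64.6, 69.4 and 22.4 CPM with shPPP2R2A-1, with no overlap (log2 fold change 5.11, SE 0.59, edgeR adjusted p = 5e-04). AKR1B10 stood at 5322, 5637 and 5693 CPM with shPPP2R2A-2 and 1256, 1058 and 460.0 CPM with shPPP2R2A-1 (log2 fold change 2.61, SE 0.31, edgeR adjusted p = 0.00058). AKR1C3 stood at 2726, 2872 and 2423 CPM with shPPP2R2A-2 and 589, 606 and 349.9 CPM with shPPP2R2A-1 (log2 fold change 2.40, SE 0.28, edgeR adjusted p = 0.00048). For these genes, the shPPP2R2A-2 libraries were above all shPPP2R2A-1 libraries, and against shcon they were not called, with log2 fold changes of 0.90 for GPX2, 0.88 for AKR1B10 and 0.32 for AKR1C3 (edgeR adjusted p = 0.22, 0.056 and 0.42). AKR1C2, ALDH3A1, CYP4F11, AKR1C1 and ABCC1 were likewise higher with shPPP2R2A-2 than with shPPP2R2A-1, by 1.95, 2.39, 2.91, 1.42 and 1.09 on the log2 scale (SE 0.31, 0.36, 0.76, 0.23 and 0.21). The CYP4F11 difference was not called without shPPP2R2A-1 replicate 2 (edgeR adjusted p = 0.093) or shPPP2R2A-2 replicate 1 (edgeR adjusted p = 0.094). ABCC3 and ALDH1A1 were higher with shPPP2R2A-2 than with shPPP2R2A-1 by 0.90 and 0.66, and AKR1B1 was lower by a log2 fold change of -0.87. The ALDH1A1 and AKR1B1 differences were lost on omission of any of 7 and 5 of the 9 libraries.

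**Figure D3:**
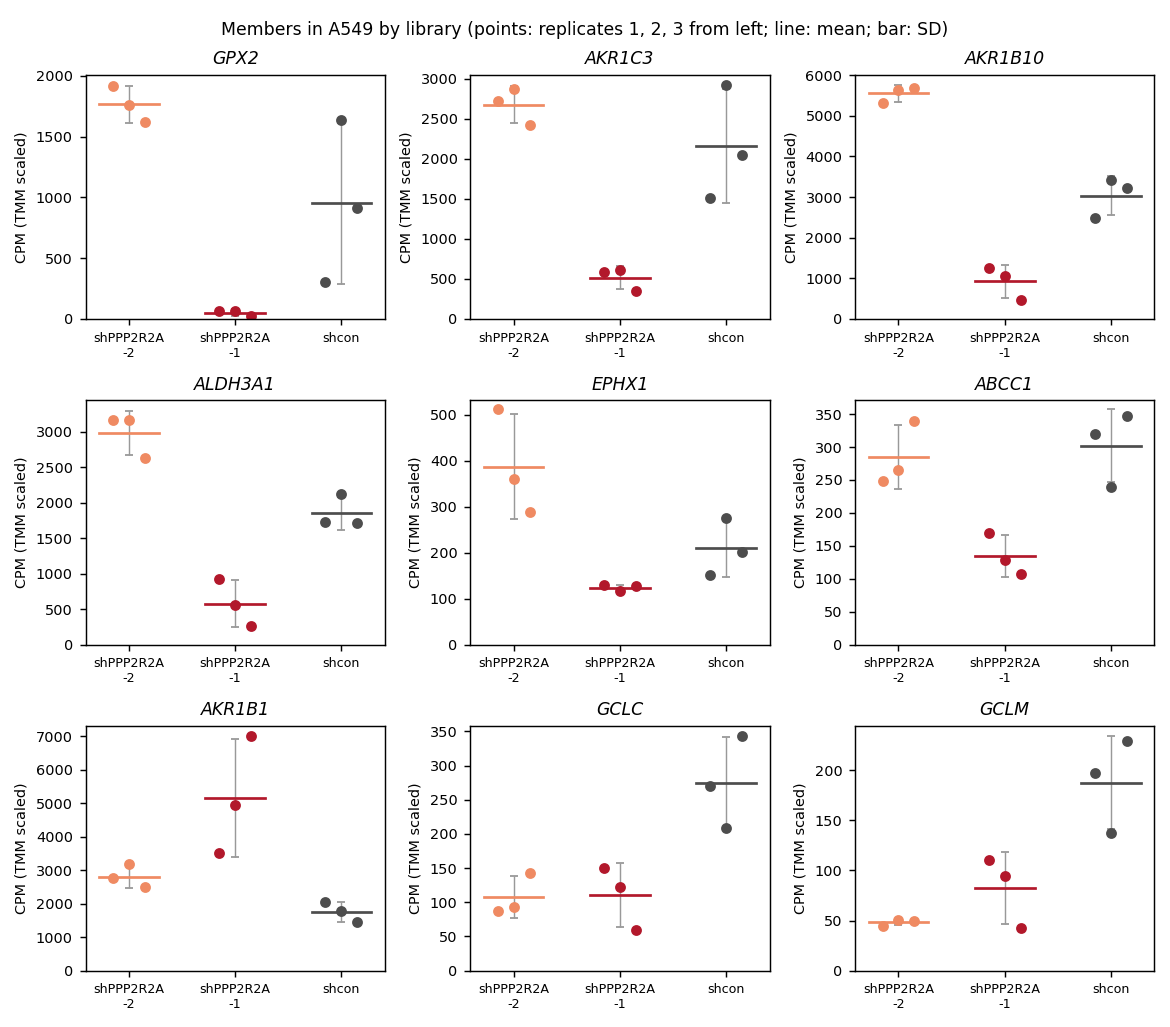
CPM of 9 members in each A549 library with shPPP2R2A-2, shPPP2R2A-1 and shcon, with replicates 1 to 3 from left to right, a line at the mean and a bar for the SD (n = 3). GPX2, AKR1C3, AKR1B10, ALDH3A1, EPHX1 and ABCC1 are lowest with shPPP2R2A-1, AKR1B1 is highest with it, and GCLC and GCLM are highest with shcon.

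Some members rose with shPPP2R2A-2, at a share near that of all genes (12.8% against 10.6%). CES1 stood at 9.76, 3.63 and 2.78 CPM with shPPP2R2A-2, against 0.322, 0.614 and 0.365 CPM with shcon. All shPPP2R2A-2 libraries were higher (log2 fold change 3.64, SE 0.77, edgeR adjusted p = 0.0078), at levels under 10 CPM and with reads that can be shared with pseudogenes. EPHX1 stood at 511, 360.4 and 289 CPM with shPPP2R2A-2, against 152, 275 and 202 CPM with shcon (log2 fold change 0.90, SE 0.25, edgeR adjusted p = 0.026). TALDO1 stood at 696, 661 and 568 CPM with shPPP2R2A-2, against 359.8, 412 and 329 CPM with shcon (log2 fold change 0.82, SE 0.18, edgeR adjusted p = 0.009). OSGIN1 stood at 102, 116 and 111 CPM with shPPP2R2A-2, against 51.6, 70.4 and 65.3 CPM with shcon (log2 fold change 0.83, SE 0.24, edgeR adjusted p = 0.032). The libraries of these 3 genes did not overlap between shPPP2R2A-2 and shcon, and CES1, EPHX1, OSGIN1 and TALDO1 were also higher with shPPP2R2A-2 than with shPPP2R2A-1, by 3.77, 1.66, 1.21 and 1.20 on the log2 scale. Of OSGIN1, 7.42% of the 100-base windows are shared with an overlapping gene. ALDH3A2 and FTH1 fell with shPPP2R2A-2 by 0.71 and 0.63 on the log2 scale (SE 0.20 and 0.19, edgeR adjusted p = 0.03 and 0.037). The library with 1.47% of the H1299 level of the 13 genes is in this group: without shPPP2R2A-2 replicate 1, 2 members rose and 1 fell with shPPP2R2A-2. The counts that rose and fell were 2 and 1 when shPPP2R2A-2 replicate 2 was left out, 8 and 4 for shPPP2R2A-1 replicate 3, and 2 and 2, 8 and 5, and 2 and 1 for shcon replicates 1, 2 and 3. The counts over all genes moved as well, from 1821 and 1712 with all libraries. They were 1090 and 859 without shPPP2R2A-2 replicate 1, 904 and 623 without its replicate 2, and 2397 and 2058 without shPPP2R2A-1 replicate 3. Without shcon replicates 1, 2 and 3, they were 1242 and 1058, 2293 and 2190, and 957 and 853. CES1 and TALDO1 stayed called with any of the 9 libraries left out, whereas the calls of EPHX1, OSGIN1, ALDH3A2 and FTH1 were lost on omission of any of 4, 5, 4 and 6 of the 9.

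Both subunits of glutamate-cysteine ligase fell with both hairpins in A549. GCLM stood at 44.9, 51.01 and 49.2 CPM with shPPP2R2A-2, 111, 94.3 and 42.2 CPM with shPPP2R2A-1 and 197, 137 and 229 CPM with shcon. GCLC stood at 87.4, 93.9 and 143 CPM with shPPP2R2A-2, 150.1, 122 and 58.99 CPM with shPPP2R2A-1 and 270.1, 209 and 343 CPM with shcon. In both genes, all 6 KD libraries were below all 3 shcon libraries. GCLM had a log2 fold change of -1.94 (SE 0.31, edgeR adjusted p = 0.0021) with shPPP2R2A-2 and -1.20 (SE 0.30, edgeR adjusted p = 0.024) with shPPP2R2A-1. GCLC had -1.33 (SE 0.32, edgeR adjusted p = 0.014) with shPPP2R2A-2 and -1.32 (SE 0.32, edgeR adjusted p = 0.02) with shPPP2R2A-1. Without shcon replicate 3, the GCLC calls ended, with edgeR adjusted p = 0.056 for shPPP2R2A-2 and 0.077 for shPPP2R2A-1, and so did the GCLM call with shPPP2R2A-1 (edgeR adjusted p = 0.087). The calls with shPPP2R2A-1 also ended without shPPP2R2A-1 replicate 2 (edgeR adjusted p = 0.051 for GCLC and 0.051 for GCLM), the GCLM call without shcon replicate 1 (edgeR adjusted p = 0.053) and in a fit of the 6 libraries compared (edgeR adjusted p = 0.056), and for shPPP2R2A-2 the GCLC call ended when its replicate 1 or 2 was left out (edgeR adjusted p = 0.058 and 0.064). GSTM3 stood at 20.02, 12.3 and 11.4 CPM with shPPP2R2A-2, 16.8, 21.3 and 21.4 CPM with shPPP2R2A-1 and 8.51, 9.27 and 8.80 CPM with shcon. All 6 KD libraries were higher (0.73 with shPPP2R2A-2, edgeR adjusted p = 0.049, and 1.16 with shPPP2R2A-1, edgeR adjusted p = 0.011). The call with shPPP2R2A-2 was lost on omission of any of 7 of the 9 libraries, with edgeR adjusted p up to 0.22 without its replicate 1, and in a fit of the 6 libraries compared (edgeR adjusted p = 0.059).

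NFE2L2 was called with neither hairpin in A549, at 39.9, 52 and 74.4 CPM with shPPP2R2A-2, 64.8, 63.7 and 34.9 CPM with shPPP2R2A-1 and 81.9, 48.3 and 89.2 CPM with shcon (log2 fold changes -0.39 and -0.43, SE 0.30 and 0.30). NQO1 was likewise not called, at 2404, 2509 and 2405 CPM with shPPP2R2A-2, 1933, 2337 and 1437 CPM with shPPP2R2A-1 and 2087, 2877 and 2394 CPM with shcon. Its log2 fold change was 0.00 (SE 0.20) with shPPP2R2A-2 and -0.37 (SE 0.20) with shPPP2R2A-1. SLC7A11 had -0.85 (SE 0.39, edgeR adjusted p = 0.14) with shPPP2R2A-2 and -1.16 (SE 0.39, edgeR adjusted p = 0.068) with shPPP2R2A-1, and its shcon libraries spread from 143 to 332 CPM.

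In H1299, few members were called, and few of all genes were. Of the 31 tested, 1 rose (3.23%) and 0 fell with shPPP2R2A-1, against 0.808% higher and 1.93% lower among all 15972 genes tested. At an unadjusted p under 0.05, 1 member was lower with shPPP2R2A-1, and DESeq2 also called 1. With shPPP2R2A-2, 2 members rose (6.45%) and 1 fell (3.23%), against 1.37% higher and 1.72% lower among all genes. The medians over the members were 0.098 with shPPP2R2A-2 and 0.174 with shPPP2R2A-1, against -0.0104 and -0.0368 over all genes. AKR1B10 was the gene that rose with both hairpins, against 0.0563% of all genes.

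AKR1B10 stood at 4.02, 2.60 and 2.39 CPM with shPPP2R2A-2, 4.17, 2.46 and 1.23 CPM with shPPP2R2A-1 and 0.307, 0.686 and 0.518 CPM with shcon in H1299. The 6 KD libraries held 84 to 230 counts of it and the shcon libraries 15 to 36, without overlap, and the highest of these levels was 0.167% of the lowest A549 shcon level. The log2 fold change was 2.51 (SE 0.48, edgeR adjusted p = 0.023) with shPPP2R2A-2 and 2.31 (SE 0.48, edgeR adjusted p = 0.031) with shPPP2R2A-1. The calls were lost when any single shcon library was left out, with edgeR adjusted p up to 0.092 with shPPP2R2A-2 and 0.091 with shPPP2R2A-1. For shPPP2R2A-2, the call was also lost when its replicate 1 or 2 was left out (edgeR adjusted p = 0.069 and 0.065). For shPPP2R2A-1, it was also lost when its replicate 1 or 2, or replicate 2 of shPPP2R2A-2, was left out (edgeR adjusted p = 0.14, 0.068 and 0.055), and under a replicate block (edgeR adjusted p = 0.058), which left 0 members called with shPPP2R2A-1. CBR3 stood at 13.02, 12.9 and 22.6 CPM with shPPP2R2A-2, 4.11, 4.60 and 4.64 CPM with shPPP2R2A-1 and 7.82, 7.59 and 7.19 CPM with shcon. All shPPP2R2A-2 libraries were above the shcon libraries (log2 fold change 1.04, SE 0.24, edgeR adjusted p = 0.043), and all shPPP2R2A-1 libraries were below them but not called (log2 fold change -0.81, SE 0.24, edgeR adjusted p = 0.096). The hairpins differed in CBR3 (log2 fold change 1.85, SE 0.24, edgeR adjusted p = 0.0012). GCLM stood at 84.7, 90.2 and 53.3 CPM with shPPP2R2A-2, 195, 142 and 143 CPM with shPPP2R2A-1 and 116, 143 and 185 CPM with shcon. The shPPP2R2A-2 libraries were the lowest, below shcon (log2 fold change -1.02, SE 0.24, edgeR adjusted p = 0.047) and below shPPP2R2A-1 (log2 fold change -1.08, SE 0.24, edgeR adjusted p = 0.013). Against shcon, the GCLM call was lost on omission of any of 7 of the 9 libraries and the CBR3 call without any of 8.

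**Figure D4:**
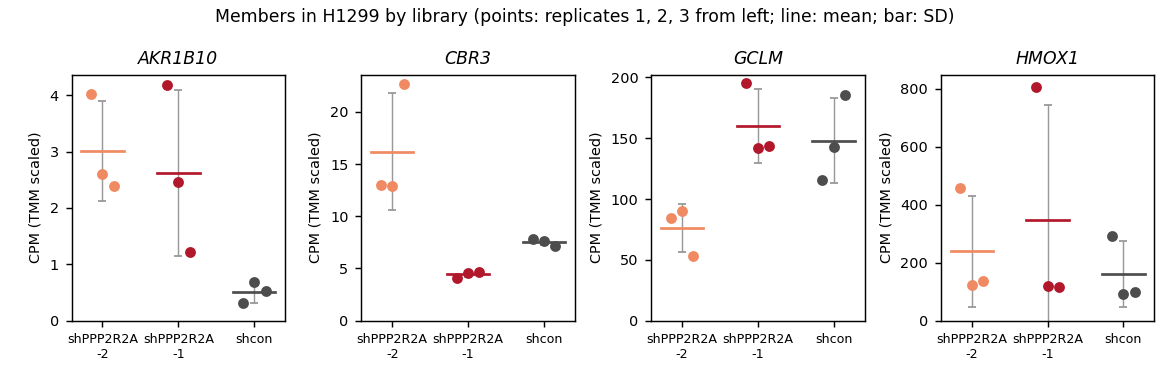
CPM of 4 members in each H1299 library with shPPP2R2A-2, shPPP2R2A-1 and shcon, with replicates 1 to 3 from left to right, a line at the mean and a bar for the SD (n = 3). AKR1B10 is higher with both hairpins at under 5 CPM, CBR3 is highest and GCLM lowest with shPPP2R2A-2, and HMOX1 is highest in replicate 1 of each group.

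Between the hairpins in H1299, 4 of 31 members were called (12.9%), against 16.2% of all genes. Besides CBR3 and GCLM, TXNRD1 was lower with shPPP2R2A-2 than with shPPP2R2A-1 (log2 fold change -0.95, SE 0.27, edgeR adjusted p = 0.037) and ABCC1 higher (log2 fold change 0.59, SE 0.17, edgeR adjusted p = 0.041). The TXNRD1 call was lost on omission of any of 5 of the 9 libraries and the ABCC1 call without any of 7, and ABCC1 was also lost with no filter on low counts (edgeR adjusted p = 0.056) and with the replicate block (edgeR adjusted p = 0.057). The library shPPP2R2A-1 replicate 1 had the highest of the 9 H1299 values for 13 of the 29 members that averaged at least 1 CPM. The matching share over all genes was not computed. Without this library, 1 member was called between the hairpins. Over all genes, 708 were then higher and 468 lower, against 1514 and 1081 with it. HMOX1 stood at 459, 122 and 137 CPM with shPPP2R2A-2, 807, 121 and 118 CPM with shPPP2R2A-1 and 292, 92.7 and 98.5 CPM with shcon. In each group, replicate 1 was the highest, and neither hairpin was called. NFE2L2 stood at 171, 157 and 144 CPM with shPPP2R2A-2, 175, 151 and 179 CPM with shPPP2R2A-1 and 129, 137 and 162 CPM with shcon, with no call.

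The 9 members not tested in H1299 were SRXN1, GPX2, ME1, AKR1C3, ALDH1A1, ALDH3A1, CES1, CYP4F11 and NR0B1. Apart from SRXN1, at most 0.261 CPM of any of them was counted in any H1299 library. A change of these genes with PPP2R2A KD was not detectable at this depth, and the hairpin effects on them in A549 have no counterpart in H1299.

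The difference between the lines was tested as the mean change over both hairpins in A549 minus that in H1299. Of the 31 members tested in both lines, 1 was called, AKR1B10, against 0.233% of the 14597 genes tested in both and 0.181% of all 18827 genes. The median difference was -0.574 on the log2 scale over the 31 members, against -0.0729 over the 14597 genes. For the other 8 members in the fit, with next to no counts in H1299, a difference could not be measured. The AKR1B10 difference was -2.88 on the log2 scale (SE 0.50, edgeR adjusted p = 0.023), with values in all libraries given above. With shPPP2R2A-1 alone, where AKR1B10 fell in A549 and rose in H1299, the difference was -4.065 (edgeR adjusted p = 0.0051), and with shPPP2R2A-2 alone it was -1.70 (edgeR adjusted p = 0.16). GCLC and GCLM, which fell with both hairpins in A549, had differences of -1.64 (SE 0.37, edgeR adjusted p = 0.057) and -1.15 (SE 0.36, edgeR adjusted p = 0.14), so that a difference between the lines was not shown for them.

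Genes around the members were read from 3 further lists: 13 regulators of KEAP1 and NRF2, 16 other NRF2 responsive genes and 20 other glutathione and peroxidase genes. Calls of single genes in these lists were not rechecked with other methods or with libraries left out. Over the genes tested in both lines, 9 of 13 NRF2 responsive genes were higher in A549 shcon and 1 was lower (median log2 fold change 1.71), as were 8 and 2 of 17 glutathione and peroxidase genes (0.465) and 1 and 4 of 13 regulators (-0.0247), against 24.8% higher, 26.3% lower and a median of -0.0354 over all genes tested in both. MGST1, a microsomal glutathione transferase, stood at 627, 731 and 588 CPM in A549 shcon, against 92.5, 74.1 and 67.4 CPM in H1299 shcon (log2 fold change 3.06, SE 0.21, edgeR adjusted p = 9.4e-10). GPX1, the cytosolic glutathione peroxidase, stood at 119, 148 and 97.99 CPM in A549 shcon, against 0.0409, 0.0381 and 0.0314 CPM in H1299 shcon, with 2 counts in each H1299 shcon library, and is given without a test. The levels of both genes did not overlap between the lines. Of the regulators, NFE2L3, a relative of NFE2L2, was lower in A549 shcon, at 19.8, 13.7 and 15.8 CPM, than in H1299 shcon, at 56.7, 59.9 and 79.7 CPM (log2 fold change -1.99, SE 0.24, edgeR adjusted p = 1.1e-06). BACH1, a repressor at the same elements, had a log2 fold change of -1.39 (SE 0.39, edgeR adjusted p = 0.0052).

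Of the regulators in A549, 1 of 13 rose and 2 fell with shPPP2R2A-2, and 3 rose and 3 fell with shPPP2R2A-1. Of all genes, 10.6% rose and 9.94% fell with shPPP2R2A-2, and 7.34% rose and 6.34% fell with shPPP2R2A-1. KEAP1 stood at 75.4, 75.8 and 86.2 CPM with shPPP2R2A-2, 62.9, 56.2 and 52.7 CPM with shPPP2R2A-1 and 87, 84.9 and 80.7 CPM with shcon. It fell with shPPP2R2A-1 in all 3 libraries (log2 fold change -0.56, SE 0.15, edgeR adjusted p = 0.028) and was not called with shPPP2R2A-2 (-0.08, SE 0.15). CUL3 stood at 56.4, 53.2 and 60.96 CPM with shPPP2R2A-2 and 113, 97.9 and 115 CPM with shcon in A549 (log2 fold change -0.92, SE 0.17, edgeR adjusted p = 0.004). In H1299, CUL3 stood at 109.7, 109.9 and 104 CPM with shPPP2R2A-2 and 184, 158 and 182 CPM with shcon (log2 fold change -0.76, SE 0.13, edgeR adjusted p = 0.017). CUL3 thus fell with shPPP2R2A-2 in both lines without overlap, and it was not called with shPPP2R2A-1 in either (-0.24 in A549 and 0.23 in H1299). Set directly against shPPP2R2A-1, shPPP2R2A-2 had less CUL3 in A549 (log2 fold change -0.68, SE 0.17, edgeR adjusted p = 0.017) and in H1299 (log2 fold change -0.99, SE 0.13, edgeR adjusted p = 0.0013). NFE2L3 rose in A549 with both hairpins (0.90 with shPPP2R2A-2, edgeR adjusted p = 0.022, and 1.13 with shPPP2R2A-1, edgeR adjusted p = 0.013), and NFE2L1 fell with both (-0.76, edgeR adjusted p = 0.026, and -0.73, edgeR adjusted p = 0.04). In H1299, SQSTM1, an adaptor that can sequester KEAP1, rose with shPPP2R2A-1 (log2 fold change 0.95, SE 0.18, edgeR adjusted p = 0.026). With shPPP2R2A-2 it stood at 1535, 1706 and 1893 CPM, above the shcon libraries at 1389, 1356 and 1161 CPM, but was not called higher.

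Of 15 other NRF2 responsive genes tested in A549, 6 rose and 1 fell with shPPP2R2A-2 (median 0.632), and 1 rose and 1 fell with shPPP2R2A-1 (median -0.175), against the shares of all genes given above for A549. ABCC5, CABYR, MGST1 and TRIM16L had the smallest adjusted p among those that rose with shPPP2R2A-2. Their log2 fold changes were 0.79, 0.96, 0.79 and 0.72 (edgeR adjusted p = 0.0072, 0.0077, 0.0082 and 0.012). With shPPP2R2A-1, ABCC5 rose by 0.85 on the log2 scale (edgeR adjusted p = 0.0082). Of 19 other glutathione and peroxidase genes, 4 rose and 0 fell with shPPP2R2A-2, and 1 rose, the mitochondrial superoxide dismutase SOD2, and 0 fell with shPPP2R2A-1. At an unadjusted p under 0.05, 0 of them were lower with shPPP2R2A-2 and 1 with shPPP2R2A-1. SOD2 stood at 187, 176 and 187 CPM with shPPP2R2A-1, against 77.9, 65.2 and 82.7 CPM with shcon (log2 fold change 1.28, SE 0.16, edgeR adjusted p = 0.0015). GPX3 rose with shPPP2R2A-2 (log2 fold change 0.83, SE 0.18, edgeR adjusted p = 0.0083), as did GGT1, which starts the breakdown of extracellular glutathione (log2 fold change 0.93, SE 0.27, edgeR adjusted p = 0.033). In H1299, 1 of 13 NRF2 responsive genes and 1 of 17 glutathione and peroxidase genes rose with shPPP2R2A-2, 0 of either rose with shPPP2R2A-1, and 0 fell with either hairpin, although at an unadjusted p under 0.05 6 NRF2 responsive genes were higher with shPPP2R2A-1. Of all genes in H1299, 1.37% rose and 1.72% fell with shPPP2R2A-2, and 0.808% rose and 1.93% fell with shPPP2R2A-1.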

How the data were processed

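RNA was sequenced as stranded mRNA libraries of 18 samples. The authors deposited whole-number counts per gene, which were used for every result, and a normalized signal that equals those counts divided by median-ratio size factors and was not used. The submitters' processing notes list GRCh37 (hg19) and, with no role given, HTSeq 0.11.2, STAR 2.7.3a, cutadapt 2.5, Cufflinks 2.2.1, Bowtie2, FastQC 0.11.8 and DESeq2. How reads that match several genes were counted is not given in the sources used here.

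The members and lists were chosen with earlier results of these data known. Tests used R 4.3.3 with edgeR 4.0.16: TMM, its filter on low counts by group, a robust quasi-likelihood fit and Benjamini-Hochberg adjustment over all genes tested, with a threshold of 0.05. The 9 libraries of a line shared a fit for hairpin contrasts, and all 18 libraries shared a fit for contrasts between lines. The steps were tested on simulated data. Values in every library were given for NFE2L2, the 8 called members with the highest and the 8 with the lowest log2 fold change between the lines, members called with both hairpins and those called in the difference between lines, and for further members described at length. The values of 1 gene of the other lists are not reported here. The genes that define the cross-line trace were chosen after seeing the data.

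Alternatives were DESeq2 1.42.0, median-ratio normalization, no filter on low counts, a replicate block, fits of fewer or all libraries, and omission of each library. Single calls were followed under them for the members and PPP2R2A only. Deviations of same-numbered libraries correlated at -0.484 to 0.476 in A549, so that the numbers did not pair them. In H1299, all 3 pairs correlated above 0.1 between shPPP2R2A-1 and shcon (0.185 to 0.326) and between shPPP2R2A-2 and shPPP2R2A-1 (0.23 to 0.439), but not between shPPP2R2A-2 and shcon (-0.607 to 0.51). Blocked values stand beside results of those 2 contrasts where the block ends a call. Counts of replicates differed by more than sampling noise. Promoters were RefSeq, GRCh38.p14, whose coordinates were not mixed with those of the counts, and shared 100-base windows were counted in GENCODE 29 transcripts. Counting intervals and floors cover counting error only.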

Additional observations from a re-analysis of the deposited data

Results flagged for a closer look

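AKR1B10 was the member whose mean change over both hairpins differed between the lines, by -2.88 on the log2 scale (A549 minus H1299, SE 0.50, edgeR adjusted p = 0.023). All 3 A549 shPPP2R2A-1 libraries were below A549 shcon, all 3 A549 shPPP2R2A-2 libraries were above it without a call, and all 6 H1299 KD libraries were above H1299 shcon. The call was lost without A549 shcon replicate 3 (adjusted p = 0.098 from edgeR) or without H1299 shcon replicate 1, 2 or 3 (adjusted p = 0.093, 0.055 and 0.078 from edgeR). Its H1299 level is low, and 2.01% of its 100-base windows are shared with related genes.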

How the results depend on the processing

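No call of a named member or of PPP2R2A reversed under any alternative. None was lost with median-ratio normalization (88 calls) or with DESeq2 (87 calls that it gave an adjusted p). Median-ratio normalization kept every count of members within 1.5 times. Counts of called members that moved by more are as follows. For A549 shPPP2R2A-2 against shcon, where 5 were higher, DESeq2 gave 8 and no filter on low counts gave 10. Over all genes, 1821 of 17229 were higher, against 2374 of 17229 with DESeq2 and 2327 of 31831 with no filter. For H1299 shPPP2R2A-1 against shcon, no filter gave 3 higher against 1, and DESeq2 and the fit of only the 6 libraries compared each gave 1 lower against 0. For H1299 shPPP2R2A-2 against shcon, DESeq2 gave 2 lower against 1, the 6 libraries alone gave 1 higher against 2 and 0 lower, and all 18 libraries in a single fit gave 0 lower. No filter gave 7 against 4 between the hairpins in H1299, and over all genes 1916 higher and 1454 lower against 1514 and 1081. For the difference between the lines, where 1 member was called, DESeq2 gave 7 and no filter 13. Added after seeing the data, shPPP2R2A-1 alone gave 3 and shPPP2R2A-2 alone 0.

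The replicate block, which the correlations bear out for only 2 of the 3 contrasts in H1299 and for none in A549, gave 3 higher and 2 lower for A549 shPPP2R2A-2 against shcon, 0 higher for H1299 shPPP2R2A-1, 1 higher and 0 lower for H1299 shPPP2R2A-2, and 0 for the difference between the lines. Over all genes, the block gave 1482 higher and 1258 lower for A549 shPPP2R2A-2 against shcon. It gave 132 and 295 for H1299 shPPP2R2A-1 and 195 and 194 for H1299 shPPP2R2A-2. The block ended 12 of 88 calls of members and PPP2R2A. Each library had its best partner under its own number in 3 of 9 cases in A549 and 5 of 9 in H1299.

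With each library left out in turn, members called ranged from 2 to 8 higher and 1 to 5 lower for A549 shPPP2R2A-2, 9 to 14 lower for A549 shPPP2R2A-1, 12 to 16 between the hairpins in A549, 0 to 1 higher and 0 to 1 lower for H1299 shPPP2R2A-1, 0 to 3 higher and 0 to 1 lower for H1299 shPPP2R2A-2, 1 to 6 between the hairpins in H1299, 33 to 35 higher and 1 lower for A549 against H1299 shcon, and 0 to 5 for the difference between the lines. The cause of these moves was not tested. Members near 0 in H1299 are limited by depth.

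Over all genes, A549 shPPP2R2A-1 against shcon gave 1265 genes higher and 1092 lower, against 818 and 539 with the 6 libraries alone, and 1802 (DESeq2), 1820 (no filter) and 721 (replicate block) lower. H1299 shPPP2R2A-1 gave 129 and 308, against 596 and 865 with DESeq2, 554 and 827 with no filter, 309 and 497 with the 6 libraries alone and 226 higher with all 18. H1299 shPPP2R2A-2 gave 219 and 274, against 786 and 637, 652 and 517, 22 and 45, and 414 higher under the same settings. Between the hairpins in H1299, DESeq2 gave 1666 lower against 1081. The difference between the lines gave 25 and 9, against 373 and 266 with DESeq2, 412 and 495 with no filter, 15 and 4 with the replicate block, 48 higher with median-ratio normalization, 152 and 54 for shPPP2R2A-1 alone and 56 and 65 for shPPP2R2A-2 alone. With each library left out in turn, genes higher and lower ranged from 495 to 1422 and 423 to 1309 for A549 shPPP2R2A-1 (lowest without shcon replicate 3), 904 to 2397 and 623 to 2190 for A549 shPPP2R2A-2 (lowest without its replicate 2; 1821 and 1712 with all), 918 to 2090 and 531 to 1746 between the hairpins in A549, 11 to 508 and 52 to 587 for H1299 shPPP2R2A-1 (lowest without its replicate 3), 17 to 730 and 70 to 487 for H1299 shPPP2R2A-2 (lowest without shcon replicate 3), 571 to 1683 and 414 to 1370 between the hairpins in H1299, and 2 to 100 and 1 to 75 for the difference between the lines.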
